A study of Drosophila melanogaster with 6 samples.

Results

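3RHet is a scaffold of 2.52 Mb that holds assembled pericentric heterochromatin of the right arm of chromosome 3, kept apart from the 3R arm sequence in release 5 of the fly genome. HP2 ChIP-seq regions on it were taken as every region assigned to 3RHet in the deposited lists: 189 of 2488 regions in replicate 1, 271 of 3132 in replicate 2, 265 of 3190 in replicate 3 and 335 of 5179 in the combined list. The scaffold makes up 1.80% of the 139.7 Mb of sequence considered and held 6.96%, 8.80% and 7.89% of all bases in HP2 regions of replicates 1, 2 and 3. Its regions were chosen by position, so their number, length, score and overlap were not used to choose them.

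HP2 (Su(var)2-HP2) is a large chromosomal protein of Drosophila melanogaster that binds HP1a. HP1a, in turn, binds histone H3 methylated at lysine 9 and is the core structural protein of heterochromatin, the compact and repeat-rich chromatin around centromeres. Loss of HP2 dose is known to relieve silencing of genes placed next to heterochromatin.

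The samples were wild-type embryos of the Oregon-R-modENCODE strain, aged 14 to 16 h, crosslinked with 1.8% formaldehyde and precipitated with the antibody Ab2-90 against HP2. The HP2 precipitations were made in triplicate (3 libraries), with 3 input libraries of unprecipitated chromatin from the same strain and stage. Per the labels, an input served its own replicate in calling that replicate's list. One further list, the combined list, stands for the set of 3. All samples are whole embryos, so the cell types behind a region are not known, and the labels do not say whether replicates came from separate collections. The depth behind a region is unknown, and the spread between lists, which may be technical, is the only error given. Replicate 1 stood apart from the others over the whole genome, with 0.522 times the covered bases of replicate 2 and 0.571 times those of replicate 3, so results below are given per replicate.

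HP2 regions covered 473.5 kb of 3RHet in replicate 1, 1146 kb in replicate 2 and 939.7 kb in replicate 3. This was 18.8%, 45.5% and 37.3% of the scaffold, a mean of 33.9% ± 13.7 (SD, n = 3), and 59.8% in the combined list. The rest of the genome was covered over 4.61%, 8.66% and 8.00% in the same 3 lists. 3RHet was thus covered 4.08, 5.26 and 4.67 times as densely as the rest, a mean log2 ratio of 2.21 ± 0.18 (SD, n = 3), and lay above it in 3 of 3 lists. With 3 lists an exact two-sided sign-flip permutation test cannot go below p = 0.25, the value found here. The factor between lists was larger for 3RHet than for the genome: replicate 1 held 0.413 times the 3RHet bases of replicate 2, against 0.522 times over all sequence. This was not particular to 3RHet. The same ratio was 0.414 on the 3R arm, 0.478 on 3LHet, 0.483 on 2RHet and 0.517 on 2LHet. Against replicate 3 it was 0.504 on 3RHet, 0.571 over all sequence and 0.364 on 3R. There it was 0.523 on 3LHet, 0.561 on 2RHet and 0.590 on 2LHet.

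The Het scaffolds of the other autosomal arms were covered more densely than 3RHet in each replicate list. Beside the 18.8%, 45.5% and 37.3% of 3RHet, 3LHet, the scaffold of the opposite arm, was covered over 31.4%, 65.6% and 60.1% in replicates 1, 2 and 3. The mean difference, 3RHet minus 3LHet, was -18.5 ± 5.27 percentage points (SD, n = 3). The mean difference from 2RHet was -6.60 ± 0.58 and that from 2LHet -2.94 ± 2.23 percentage points (SD, n = 3 each). Against the short XHet scaffold 3RHet was higher by 30.4 ± 11.6 percentage points, and against the 3R arm by 32.4 ± 13.1 (SD, n = 3 each). 3R itself was covered over 0.71%, 1.71% and 1.95%. Each of the 5 differences had the same sign in 3 of 3 lists (exact sign-flip permutation test, two-sided, p = 0.25, adjusted p = 0.25 over the 5, the smallest possible). The difference from 2LHet turned to 5.40 percentage points above it in the combined list. In regions per Mb (the mean of the 3 lists) 3RHet lay 14.7 above 2LHet and 0.62 above 2RHet, with replicate 1 on the other side of 0 in both. Against 3LHet the mean was -6.79 regions per Mb, with replicate 2 at 10.99 and replicates 1 and 3 at -30.2 and -1.17. The order against these 3 scaffolds thus rests on covered bases.

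**Figure D1:**
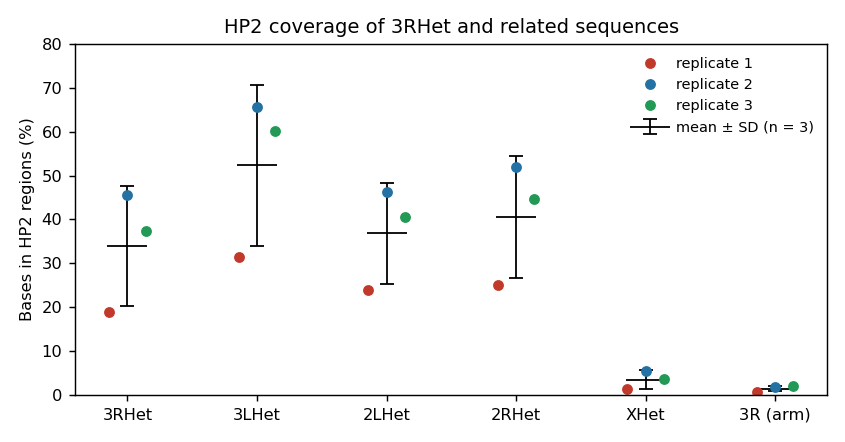
Percent of bases inside HP2 regions (vertical axis) for 3RHet, the other Het scaffolds and the 3R arm. Points are the 3 replicate lists, bars the mean ± SD (n = 3); 3RHet lies at 18.8%, 45.5% and 37.3%, below 3LHet, 2LHet and 2RHet in each list and far above XHet and 3R.

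3RHet also differed from the other long Het scaffolds in the number of regions that replicate 1 held. Replicate 1 had 189 regions on 3RHet, against 271 in replicate 2 and 265 in replicate 3, or 0.697 and 0.713 times as many. On 2RHet the 3 lists held 313, 312 and 316 regions, and on 3LHet 269, 247 and 272. Replicate 1 thus held 0.99 to 1.09 times as many regions as the others on those 2 scaffolds, and 0.794 and 0.780 times as many over the whole lists. A lower number in replicate 1 was not particular to 3RHet. The 3R arm held 110, 257 and 285 regions in replicates 1, 2 and 3, or 0.428 and 0.386 times as many in replicate 1. XHet held 1, 7 and 5 regions, and 2LHet 29, 28 and 33. Each ratio is 1 value, and the difference between scaffolds was not tested.

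Along the scaffold HP2 was unevenly spread. In windows of 100 kb, the window from 1800001 to 1900000 was the most covered of the 25 full windows in each of the 4 lists, at 60.3%, 86.0% and 84.6% in replicates 1, 2 and 3 and 87.2% in the combined list. The window from 2400001 to 2500000 was the least covered in each list, at 3.43%, 8.20%, 6.11% and 12.7%. No full window was empty in any list. The profile was shared: across the 25 windows Spearman's rho was 0.93 between replicates 2 and 3. Between replicate 1 and each of them it was 0.81 (replicate 2) and 0.83 (replicate 3). These are correlations across neighbouring windows of 1 scaffold, given as a description.

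**Figure D2:**
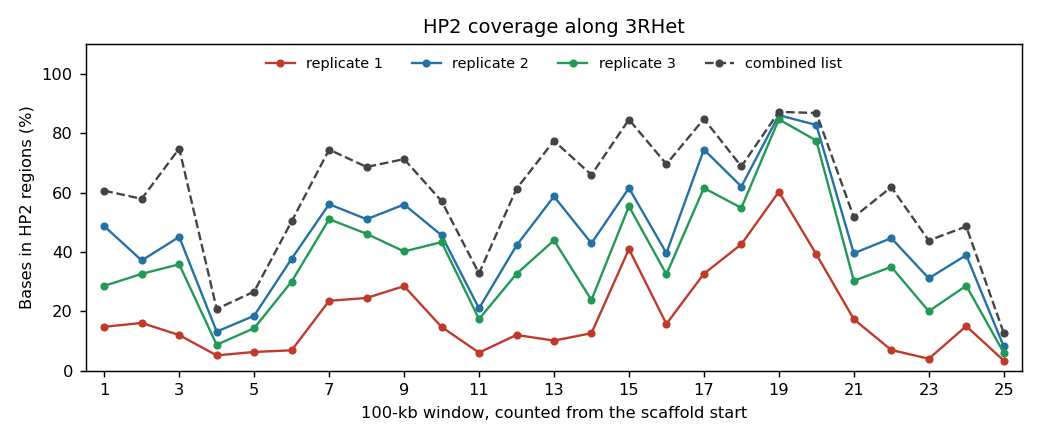
Percent of bases inside HP2 regions (vertical axis) in the 25 full windows of 100 kb, counted from the scaffold start, for the 3 replicate lists and the combined list. The lines peak together at window 19 (60.3%, 86.0% and 84.6% in replicates 1, 2 and 3) and are lowest at window 25, with replicate 1 below the other two in all 25 windows.

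A peak of coverage stretched over 4 neighbouring windows, from 1600001 to 2000000, an interval picked after the profile had been seen. It makes up 15.9% of the scaffold and held 36.9%, 26.6% and 29.6% of the HP2-covered bases of replicates 1, 2 and 3. Coverage there was 43.7%, 76.3% and 69.6%, against 14.1%, 39.7% and 31.2% on the remainder of 3RHet. All 3 regions longer than 10 kb that replicate 1 had on the scaffold lay in it, as did 12 of 21 in replicate 2 and 12 of 18 in replicate 3. Windows above the scaffold's own mean in all 3 replicate lists numbered 8: these 4, the window from 1400001 to 1500000, and the 3 windows from 600001 to 900000. Another 14 windows lay below that mean in all 3 lists.

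In 5 equal parts of about 503.5 kb the same order held. The fourth part was covered over 37.6%, 67.8% and 61.1% in replicates 1, 2 and 3 (mean 55.5% ± 15.9, SD, n = 3), the highest of the 5 in each list. The outer parts were lowest, at 22.3% ± 10.8 for the first and 22.4% ± 11.7 for the last (SD, n = 3 each). Region scores followed this in part. The score is the authors' value for each region, and its scale is not stated in the sources used here. Its level is therefore compared only within a list, and between lists scores are only correlated across overlapping regions. In the fourth part the median score was 0.93 in replicate 2 and 1.02 in replicate 3, against 0.69 to 0.75 and 0.80 to 0.88 in the other parts. In replicate 1 the medians of the 5 parts lay between 0.97 and 1.01, and the fourth part had the lowest.

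**Figure D3:**
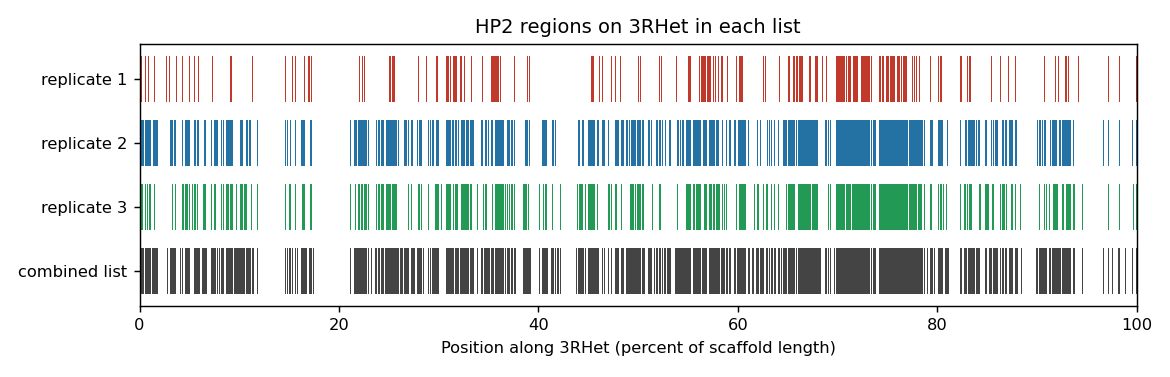
HP2 regions on 3RHet, drawn to scale as blocks along the scaffold (horizontal axis, percent of its length) in the 3 replicate lists and the combined list. The densest stretch, between 63.6% and 79.4% of the length, holds 36.9%, 26.6% and 29.6% of the covered bases of replicates 1, 2 and 3, and the wide blank stretches recur in each list.

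Stretches outside every list took 37.1% of the scaffold, 934.1 kb in 320 pieces with a median of 1153 bp. The 5 longest made up 265.4 kb of this. The longest ran from 439409 to 523367 (84.0 kb), followed by 299329 to 367039 (67.7 kb) and 2381393 to 2431767 (50.4 kb). The fourth and the fifth ran from 2228183 to 2263431 (35.2 kb) and from 2042449 to 2070571 (28.1 kb). The longest gap within each list contained the first of these: it measured 90.5, 95.7 and 96.9 kb in replicates 1, 2 and 3. The sequence of these stretches was not analysed here, so unassembled bases and repeats to which reads cannot be assigned were not told apart from sequence free of HP2.

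The strongest region found in all 3 replicate lists ran from 1819042 to 1844722 (25.7 kb) with a score of 1.86 in the combined list. Replicate 2 had it as 1 region from 1819040 to 1844652 and replicate 3 as 1 region from 1819043 to 1844725, with scores of 1.94 and 1.93. Replicate 1 had 3 regions there, which covered 87.6% of it and scored up to 1.65. Start positions thus lay within 3 bp of each other in replicates 2 and 3 and end positions within 73 bp.

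The next 3 by score among those found in all 3 lists adjoined it at lower coordinates. They ran from 1796294 to 1818708 (score 1.71), from 1756880 to 1782478 (1.64) and from 1782868 to 1796028 (1.46). Replicate 2 covered 99.1%, 99.1% and 100% of their bases, replicate 3 83.6%, 94.5% and 92.4%, and replicate 1 64.7%, 80.4% and 77.1%. With regions less than 1000 bp apart joined, this group became 1 block from 1753012 to 1848660 (95.6 kb) in the combined list and from 1756983 to 1848615 (91.6 kb) in replicate 2. The longest joined block of replicate 3 lay at higher coordinates, from 1866750 to 1939992 (73.2 kb), and that of replicate 1 within it, from 1884280 to 1907770 (23.5 kb).

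The remaining 6 of the 10 strongest found in all 3 lists were spread more widely. The fifth ran from 1419754 to 1431536 with a score of 1.35, and here replicate 1 covered the larger part: 93.8% of the bases, against 74.1% in replicate 2 and 61.7% in replicate 3. The sixth, from 772976 to 789616 (score 1.31), contained the top-scoring 3RHet region of replicate 1, from 773805 to 781035 with a score of 1.71, which lay fully inside regions of both other replicates. The seventh and eighth were the shortest of the 10, at 4973 and 3421 bp, though above the median of 2659 bp of the combined 3RHet regions. They ran from 809956 to 814928 (score 1.25) and from 1845240 to 1848660 (1.23). The ninth, from 1884136 to 1923814 (1.22), was the longest combined region of the scaffold at 39.7 kb, and the tenth ran from 1661296 to 1678806 (1.21). Of the 10, 7 lay in the fourth of the 5 equal parts, and 9 had over 50% of their bases covered in every replicate list. The exception was the eighth, of which replicate 1 covered 47.5%.

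**Figure D4:**
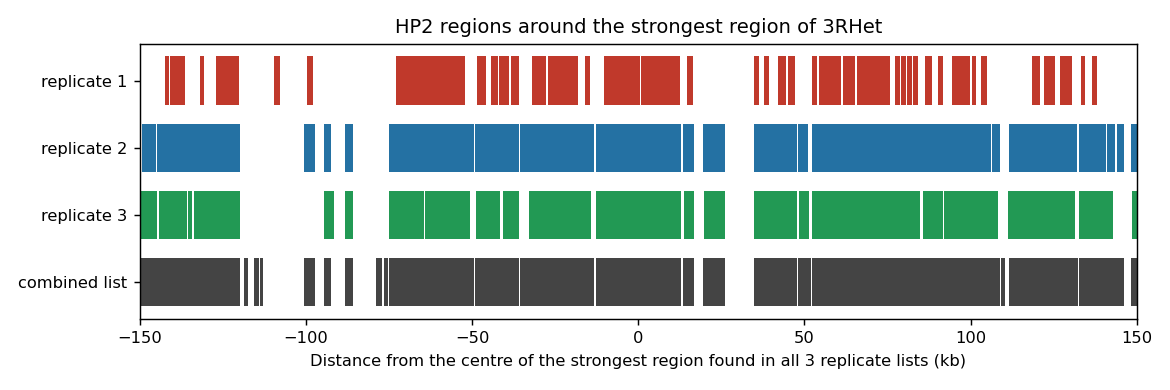
HP2 regions within 150 kb of the centre of the strongest region found in all 3 replicate lists (horizontal axis, kb from that centre), drawn to scale in the 3 replicate lists and the combined list. Within this interval replicate 1 has 42 separate regions over 48.8% of the bases, and replicates 2 and 3 have 24 regions each over 80.2% and 75.6%.

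Each of the 10 longest combined regions had a counterpart in every replicate list, and 4 of them were among the 10 strongest found in all 3 lists. Among all 335 combined regions of the scaffold, the 10 longest ranked between 10 and 125 by score. Those not yet described ran from 1678818 to 1711978 (33.2 kb), 620762 to 648888 (28.1 kb), 897836 to 919338 (21.5 kb), 1943314 to 1964280 (20.97 kb), 1510916 to 1531032 (20.1 kb) and 1636544 to 1655126 (18.6 kb), with scores of 1.11, 0.95, 0.88, 0.76, 0.90 and 1.04. Replicate 2 covered at least 90% of each of the 10, and replicate 3 did so for 7. Replicate 1 covered 41.5% to 87.6% of them and split the longest into 10 regions.

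Splitting was common among the regions over 10 kb. Of regions of any length, 35 of 271 in replicate 2 and 37 of 265 in replicate 3 held 2 or more regions of replicate 1. Of the 21 regions over 10 kb in replicate 2, 18 held 2 or more regions of replicate 1, and of the 18 in replicate 3 all 18 did. Between replicates 2 and 3 this was rarer: 12 of those 21 held 2 or more regions of replicate 3, and 6 of those 18 held 2 or more of replicate 2. A longer region has more room for several, and the same counts for other sequences are not given here. Whether such splitting is particular to 3RHet was thus not tested. The longest region measured 11.7, 39.6 and 25.7 kb in replicates 1, 2 and 3. Median lengths were 1791, 2670 and 2134 bp on 3RHet, against 1929, 2036 and 2009 bp for all other regions of the same lists. 3RHet regions were the longer ones in replicates 2 and 3 and the shorter ones in replicate 1, a mean log2 ratio of 0.12 ± 0.25 (SD, n = 3; exact two-sided sign-flip permutation test, p = 0.75). Without replicate 2 the mean ratio was -0.010. By sequence, medians were 2023, 4021 and 3436.5 bp on 3LHet and 1948, 3213.5 and 2826 bp on 2RHet, above 3RHet in each list. On 2LHet they were 1886, 4022.5 and 2126 bp, below 3RHet in replicate 3 only. On the 3R arm they were 1723, 1818 and 1861 bp, below 3RHet in each list. These differences by sequence were not tested.

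Scores on 3RHet did not separate from those elsewhere. The median score was 0.99, 0.73 and 0.85 on 3RHet in replicates 1, 2 and 3, against 0.99, 0.69 and 0.77 for all other regions. The mean difference of 0.036 ± 0.044 (SD, n = 3) was smaller than its spread, and 2 of 3 lists lay above 0 (exact two-sided sign-flip permutation test, p = 0.5). It turned to -0.0098 with means in place of medians and to -0.053 when set against the 3 other Het scaffolds of chromosomes 2 and 3. In the combined list the medians were 0.66 on 3RHet and 0.55 for all other regions. By sequence the order differed, beside 0.986, 0.726 and 0.855 on 3RHet in replicates 1, 2 and 3. Medians were 0.996, 0.855 and 0.936 on 3LHet and 0.992, 1.034 and 1.094 on 2LHet, higher in each list. On the 3R arm they were 0.890, 0.480 and 0.593, lower in each list. On 2RHet they were 0.974, 0.786 and 0.889, lower in replicate 1 only. These differences by sequence were not tested.

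On 3RHet the share of regions with a partner in another list was highest for replicate 3 in replicate 2. Of the replicate 3 regions, 86.0% overlapped a replicate 2 region by at least 1 bp (78.6% over the whole list), and 75.6% of replicate 2 regions overlapped one of replicate 3 (73.0% over the whole list). Replicate 1 regions had a partner in replicate 2 in 81.5% of cases and in replicate 3 in 78.3% (78.5% and 75.0% over the whole list). The other way, replicate 1 held a partner for 37.3% of the regions of replicate 2 and for 41.9% of those of replicate 3 (42.4% and 42.2% over the whole list). With an overlap of at least 50% both ways, each of the 6 shares on 3RHet was below that of the whole list. For replicate 3 in replicate 2 it was 52.8% (60.2% over the whole list) and for replicate 2 in replicate 3 51.7% (61.3%). For replicate 1 it was 18.0% in replicate 2 (27.0%) and 26.5% in replicate 3 (30.2%), and the other way 12.5% of replicate 2 (21.5%) and 18.9% of replicate 3 (23.5%) were found in replicate 1. In covered bases, replicate 2 contained 79.6% of replicate 1 and 86.4% of replicate 3, and replicate 1 contained 32.9% of replicate 2. The Jaccard index, shared over joint bases, was 0.637 for replicates 2 and 3 on 3RHet, against 0.822 on 3LHet and 0.748 on 2RHet. With replicate 1 it was 0.303 (replicate 2) and 0.340 (replicate 3) on 3RHet, against 0.390 to 0.417 on the other two scaffolds. 3LHet and 2RHet were also more densely covered than 3RHet, and the part of coverage in this difference was not tested.

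All 3 replicate lists shared 336.7 kb, or 13.4% of 3RHet, in 153 stretches of which the longest was 11.7 kb. A further 21.4% of the bases lay in 2 lists, 18.8% in 1 and 46.4% in none. Bases in replicates 2 and 3 but not in 1 made up 18.9% of the scaffold, and bases in replicate 1 alone 2.96%. The combined list contained nearly all bases found in 2 or 3 replicate lists (99.3% and 100.0%), 84.2% of those in 1 and 20.1% of those in none.

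Of the 335 combined regions on the scaffold, 86 (25.7%) had a counterpart in every replicate list, against 21.0% of the whole combined list. With an overlap of at least 50% both ways 14 (4.18%) did, against 8.73% of the whole list. Without replicate 1, 50.4% had a counterpart of at least 1 bp in both remaining lists. Asking for 2 lists in place of 3 can only raise this share. Over the whole combined list its 2 parts were 21.0% in all 3 lists and 18.9% in replicates 2 and 3 alone. Another 100 (29.9%) were found in 2 lists, against 22.8% of the whole list, 80 (23.9%) in 1, against 22.7%, and 69 (20.6%) in none, against 33.5%. The share in all 3 was 47.4% on 3LHet, 40.6% on 2LHet, 39.2% on 2RHet, 10.5% on the 3R arm and 0 of 14 regions on XHet. These shares were not tested, since the combined list is drawn from the same libraries. Among the remaining combined regions, 83 (24.8%) were found in replicates 2 and 3 but not in replicate 1, against 18.9% of the whole list.

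Length went with presence, counted by an overlap of at least 1 bp, which a longer region meets more easily. The part of this rule in the order was not tested. The median length was 7286 bp for combined regions in all 3 lists, 3297 bp for 2, 1876 bp for 1 and 1337 bp for none, and 31 of the 34 regions over 10 kb were found in all 3. Score did not follow the same order: the medians were 0.76, 0.63, 0.60 and 0.75 for 3, 2, 1 and 0 lists. Of the 69 regions in no list, 34 were shorter than 1301 bp, the shortest region of any replicate list on 3RHet. The same was true of 15 of the 80 in 1 list, 1 of the 100 in 2 lists and 0 of the 86 in all 3. These counts by length are not given for the whole combined list, so whether they are particular to 3RHet was not tested.

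**Figure D5:**
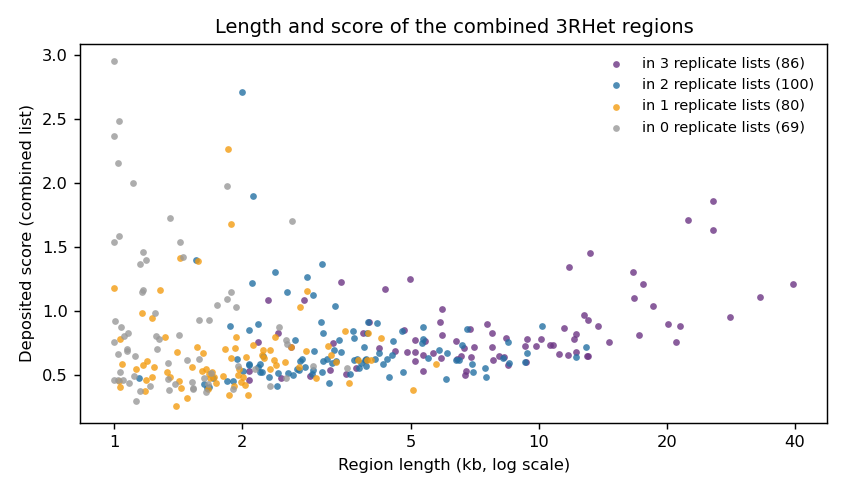
Length (horizontal axis, kb, log scale) and deposited score (vertical axis) of the 335 combined 3RHet regions, coloured by the number of replicate lists in which they were found. The 86 regions in all 3 lists run from 2077 bp to 39.7 kb (median 7286 bp), overlap in length with the others and score up to 1.86, and the highest scores, up to 2.95, belong to short regions at the left that fewer lists hold.

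The highest scores of the combined list were those of short regions. Above the 1.86 of the strongest region found in all 3 lists lay 9 regions, named here after their values were seen, of which 6 were found in no replicate list and 5 were shorter than any replicate region. The 3 highest without a replicate counterpart ran from 158784 to 159784 (score 2.95, 1001 bp), from 1755562 to 1756590 (2.48, 1029 bp) and from 1718050 to 1719050 (2.37, 1001 bp). The second of these lies 289 bp before the 25.6 kb region found in all 3. The top-scoring region of replicate 2, from 1658076 to 1660041 with a score of 2.59, was fully covered in replicate 1 and had no counterpart in replicate 3. That of replicate 3, from 1433861 to 1435881 with a score of 2.44, was fully covered in replicate 1 and had no counterpart in replicate 2.

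Scores of overlapping 3RHet regions were ranked most alike in replicates 2 and 3, with Spearman's rho 0.62 and Pearson's r 0.73 over 205 pairs. With replicate 1, rho was 0.30 over 154 pairs (replicate 2) and 0.34 over 148 pairs (replicate 3). These are correlations across regions of 1 scaffold, several of which shared a partner, and no p is given. Where both regions had to share at least 50%, rho was 0.78 over 140 pairs of replicates 2 and 3. It was then 0.35 over 34 pairs of replicates 1 and 2, and 0.41 over 50 pairs of replicates 1 and 3. Replicate 2 regions that replicate 1 also had were the stronger ones, with a median score of 0.84 over 101 regions, against 0.67 over the 170 that it lacked. The same held for replicate 3, at 0.94 over 111 regions against 0.81 over 154. Replicate 1 regions present in or missing from replicate 2 had median scores of 0.98 and 1.01. The regions that replicate 1 also had were longer as well, and a longer region meets the 1 bp rule more easily. Median lengths were 4415 against 2189 bp in replicate 2 and 3121 against 2004 bp in replicate 3. The part of length in these score differences was not tested, and their values over the whole lists are not given here.

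Edges were placed less alike on 3RHet than on the arm. For regions of replicates 2 and 3 that shared at least 50% both ways, starts and ends differed by a median of 318 bp over 140 pairs on 3RHet, by 79 bp over 173 pairs on 3R, by 289 bp on 3LHet and by 246 bp on 2RHet. The share of edges within 50 bp was 13.6% on 3RHet, 19.1% on 3LHet, 16.9% on 2RHet and 37.6% on 3R. The regions on 3R were shorter, with median lengths of 1818 and 1861 bp in replicates 2 and 3, against 2670 and 2134 bp on 3RHet, and the part of length in this difference was not tested.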

How the data were processed

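HP2 was mapped by ChIP-seq in 3 immunoprecipitation libraries, each with an input library; the files used here are the 3 replicate lists and 1 combined list of enriched regions, and the 3 inputs were not analysed here by themselves. Reads were aligned with Bowtie 0.12.7, per the submitters' processing notes, and positions follow release 5 of FlyBase (headers of the lists). No source used here names the caller of the regions, its threshold or how the combined list was made. The authors deposited a start, an end and a score for each region. The scale of the score is not stated per the file headers; differences between the 29 next commonest scores and the commonest one matched log2 ratios of whole numbers up to 12 in 9 to 16 cases per list (tolerance 1e-06), and ratios in base e or 10 in at most 1. Score levels were therefore compared only within a list. Differences found within a list were averaged over lists, and between lists scores were only correlated across overlapping regions.

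From the lists were computed covered bases (regions that touch counted once, and the last region of each list set to end with the scaffold), shares of regions with a partner (1 bp, or 50% both ways), Jaccard indices and gaps. Lengths came from the file headers, and Uextra, with no region, was left out. Lists, not regions, are the replicates: differences were tested by exact two-sided sign-flip permutation over 3 lists, with Benjamini-Hochberg adjustment over the 5 scaffold comparisons. On 20 simulated lists (80 regions each) with known answers, the interval code recovered all. Read depth is unknown, so only the spread between lists gives precision. Named are the 10 strongest combined regions in all 3 lists, the 10 longest, the 3 strongest in none, the strongest of each replicate and the 5 longest stretches outside every list. Scaffold, rules and tests were chosen with earlier results of these data known; the interval of 4 windows, the edge comparison and the list of 9 high-scoring regions were added after the values had been seen. Genes and sequences are not given, because the annotation at hand follows another release. Python 3.11.15, numpy 2.4.6, scipy 1.17.1, pandas 2.3.3 and matplotlib 3.10.9 were used. Alternatives covered score, length, overlap, merging, window size, the combined list and leaving out each replicate.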

Additional observations from a re-analysis of the deposited data

How the results depend on the processing

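Of 104 values under alternatives for 15 results, 85 were unaltered by the rule for their kind: the same direction for a difference, within 1 SD between lists (or the 95% binomial interval of a share) for a level, and within 1.5 times for the number of regions. Another 11 moved past that and 8 turned. The binomial interval counts neighbouring regions of 1 scaffold as independent. It served only as a limit for this sorting and is not an error between replicates. The density of 3RHet over the rest of the genome (log2 2.13 to 2.31 without each replicate) and the signs of the mean differences from 3LHet, XHet and 3R held in every alternative run, though against 3LHet in regions per Mb (-6.79 ± 21.2, SD, n = 3) replicate 2 had the other sign. The number of regions was 335 in the combined list and 177 after merging, both more than 1 SD from the mean of 242. With regions at or above their list's median score alone, the mean number of regions was 137 and the share of combined regions in all 3 lists 18.3%; the median score difference turned to -0.100 and the log2 length ratio to -0.044, which selects on the score itself. With the combined list coverage was 59.8%, that of the least covered window 12.7% and the difference from 2LHet 5.40. In regions per Mb 3RHet was above 2LHet by 14.7 and above 2RHet by 0.62. The score difference was -0.0098 with means and -0.053 against the other Het scaffolds of chromosomes 2 and 3. A 50% overlap both ways left 4.18% of combined regions in all 3 lists (8.73% over the whole list) and 30.1% of regions with a partner, against 66.8% at 1 bp; 50% of the region itself left 7.46%. The least covered window was at 0 with 50 kb and at 19.0% with 200 kb. Leaving out each replicate in turn gave a log2 length ratio of -0.010 to 0.24, 28.1% to 50.4% of combined regions in the remaining lists (highest without replicate 1) and a mean rho of 0.30 to 0.62 (highest without replicate 1); the region number ranged from 227 to 268 and coverage from 28.1% to 41.4%. For these changes the cause was not tested, and asking for 2 lists in place of 3 can only raise the share of combined regions in them. No paired analysis was possible because the inputs that share the replicate numbers have no list here. Without read totals the depth behind single regions cannot be given.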
